A study of Mus musculus with 8 samples.

Results

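The 10 genes described here encode proteins of the acute phase response and were chosen by symbol: Saa1, Saa2, Saa4, Orm1, Orm2, Hp, Hpx, Lcn2, Serpina3n and Steap4. All 10 were found among the 25229 genes counted in each of 8 bulk RNA-seq libraries of mouse liver cells. The values are reads on the gene's own strand. Where they are written as CPM, they are counts scaled to a common library size, with the sizes adjusted by the TMM method.

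Every C57BL/6 mouse in the series was Ifih1-/-, so it lacked the double-stranded RNA sensor MDA5, and Alb-Cre+, so it carried a recombinase driven by the albumin promoter, which is active in hepatocytes. The groups differed at Adar1, which encodes an RNA-editing enzyme: 3 mice were Adar1 wt/wt, 2 were wt/flox and 3 were flox/flox. The design text counts 2 flox/flox mice, and all 3 samples bearing that genotype were used. In each group replicate 1 came from a mouse aged 11 weeks and replicate 2 from one aged 9 weeks, and replicate 3 of wt/wt and flox/flox from one aged 7 weeks. Cells were freed by collagenase perfusion, pelleted at low speed and passed through Percoll, which enriches for hepatocytes, and the wt/wt group still carried Cre and lacked Ifih1. No group with intact Ifih1 was analysed here.

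The acute phase response is the change in liver secretion that follows infection or tissue injury. Interleukin-6 and related cytokines act through gp130 and STAT3, and interleukin-1 and tumour necrosis factor through NF-kB and C/EBP factors, while glucocorticoids add to both. Hepatocytes then release more of the positive acute phase proteins and less of the negative ones, such as albumin and transthyretin. Serum amyloid A1 and A2 are the strongly inducible apolipoproteins of this response and serum amyloid A4 is its constitutive relative. Other members bind free haemoglobin, haem, drugs or bacterial iron chelators, or inhibit proteases.

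Sense gene reads numbered 75875711 to 132303735 per library. Ifih1 had 0 to 4 reads in each library. Adar was 28.1, 30.0 and 53.6 CPM in wt/wt, 22.0 and 31.8 CPM in wt/flox, and 49.4, 35.9 and 42.1 CPM in flox/flox, so the total for the gene was not lower in flox/flox (edgeR adjusted p = 0.626 against wt/wt). The floxed exons are not named in the labels, so a total over all exons checks those labels little. Xist and Y-linked transcripts went against the labelled sex in the libraries labelled flox/flox replicate 1 (31 Xist reads, 21255 Y-linked reads) and flox/flox replicate 2 (246646 and 0). The wt/wt files carry no batch mark, whereas those of both other groups carry the mark "batch2", so genotype and batch mark cannot be told apart in any comparison with wt/wt. Both comparisons with wt/wt also share its 3 libraries. Of the labelled cell type, all 10 hepatocyte markers examined had reads in all 8 libraries. Their summed level was 97585 to 114470 CPM in wt/wt, 147100 to 167060 in wt/flox and 158040 to 234640 in flox/flox.

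Promoter sequences of 8 members are given by RefSeq on GRCm38.p6. Of these, 5 are printed from base -250 to base -51 relative to RefSeq's start. Saa1 and Saa2 are shown because their levels moved together, Lcn2 because it varied most, and Serpina3n and Steap4 because they passed the test. Capitals mark matches to 4 motifs.
Saa1: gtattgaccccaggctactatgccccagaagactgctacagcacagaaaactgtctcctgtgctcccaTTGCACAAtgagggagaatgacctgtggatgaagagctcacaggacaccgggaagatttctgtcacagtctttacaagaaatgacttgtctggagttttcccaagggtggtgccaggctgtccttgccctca
Saa2: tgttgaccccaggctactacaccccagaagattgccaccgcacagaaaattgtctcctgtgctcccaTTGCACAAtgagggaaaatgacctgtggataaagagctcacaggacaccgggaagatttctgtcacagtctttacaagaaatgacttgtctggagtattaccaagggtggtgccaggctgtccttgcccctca
Lcn2: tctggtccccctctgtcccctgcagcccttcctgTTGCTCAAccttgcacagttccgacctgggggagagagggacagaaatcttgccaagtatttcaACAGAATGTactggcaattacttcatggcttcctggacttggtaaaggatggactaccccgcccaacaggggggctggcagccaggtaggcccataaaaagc
Serpina3n: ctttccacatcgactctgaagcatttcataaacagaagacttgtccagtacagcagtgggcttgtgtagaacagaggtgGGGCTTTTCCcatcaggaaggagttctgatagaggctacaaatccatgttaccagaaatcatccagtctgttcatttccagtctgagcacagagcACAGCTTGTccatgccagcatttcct
Steap4: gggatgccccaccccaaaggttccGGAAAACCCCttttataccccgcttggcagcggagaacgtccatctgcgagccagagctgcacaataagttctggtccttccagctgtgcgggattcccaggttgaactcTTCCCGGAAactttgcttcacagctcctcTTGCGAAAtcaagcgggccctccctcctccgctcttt
The Saa1 stretch is chr7:46743031-46743230 on the minus strand, and Saa2's is chr7:46751583-46751782 on the plus strand. The Lcn2 stretch is chr2:32387790-32387989 (minus), Serpina3n's is chr12:104406458-104406657 (plus) and Steap4's is chr5:7960222-7960421 (plus).

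Both strands of the 250 bases before each start were searched for 4 sets of letters, and no matches overlapped each other. The C/EBP letters TTGCNNAA were found in 7 of the 8 member promoters and in 9.56% of 32851 mouse promoters. Serpina3n was the member without them. The NF-kB letters, GGG then any 2 bases then TTTCC, were found in Serpina3n and Steap4, and in 1.41% of all promoters. The STAT letters TTCNNNGAA were found in Steap4 at bases -116 to -108, and in 7.02% of all promoters. The glucocorticoid receptor letters ACANNNTGT were found in Lcn2 and Serpina3n, and in 5.84% of all promoters. Saa1 and Saa2 were 95.6% identical over their 250 upstream bases (238 of 249 aligned), and both held TTGCACAA 1 base apart in position. These matches describe letters only.

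Per kilobase of mRNA, Hpx had the highest median level over the 8 libraries (3470 CPM per kb), followed by Hp (1702) and Orm1 (825). Hpx encodes hemopexin, which binds free haem, Hp encodes haptoglobin, which binds free haemoglobin, and Orm1 encodes orosomucoid, a plasma carrier of drugs and lipids. Serpina3n followed at 238 CPM per kb, Saa4 at 90.004, Saa1 at 74.5, Steap4 at 36.9, Lcn2 at 18.0, Saa2 at 14.6 and Orm2 at 11.8. The ranges of Hpx, Hp and Orm1 each lay clear of the gene below, whereas neighbours from Serpina3n downward overlapped. Together the 10 genes took 0.933% ± 0.168 of sense gene reads in wt/wt (SD, n = 3), against 0.893% ± 0.154 for wt/flox (n = 2) and 0.926% ± 0.182 for flox/flox (n = 3). Hp and Hpx supplied 80.8% to 84.5% of those reads.

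Lcn2, Orm2, Saa1 and Saa2 varied more between libraries than the abundant members did. The highest library exceeded the lowest 24.3-fold for Lcn2, 11.9-fold for Orm2, 10.5-fold for Saa1 and 9.13-fold for Saa2. The same ratio was 4.99 for Steap4, 2.62 for Saa4 and for Serpina3n, 1.92 for Hpx, 1.60 for Orm1 and 1.54 for Hp. The median of that ratio over 8791 genes with a mean of at least 5 CPM was 1.82. Of those genes, 0.751% had a larger SD of log2 CPM than Lcn2, and 71.3% had a larger SD than Hp.

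**Figure D1:**
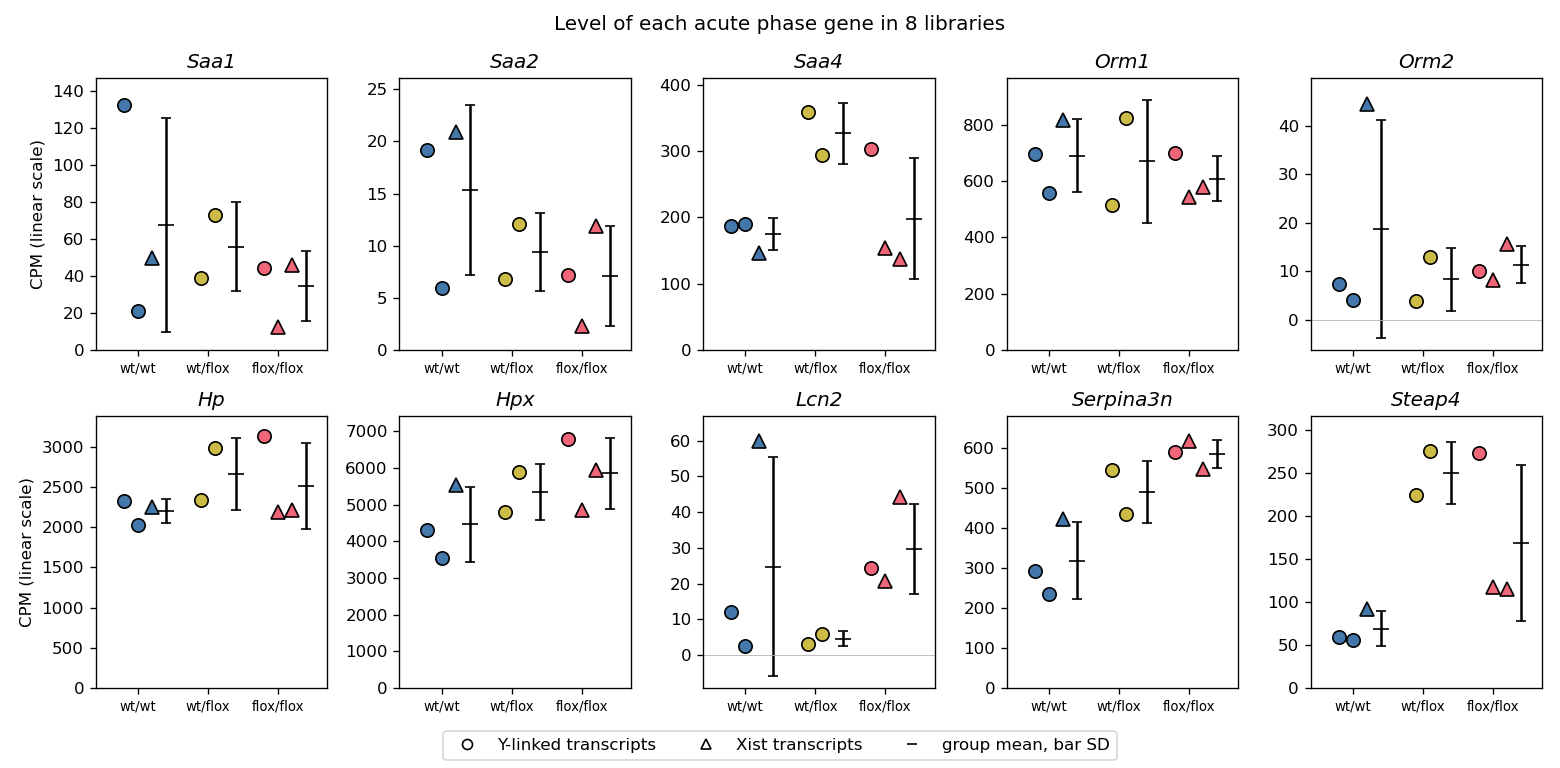
Level of each gene in CPM (linear axis) in every library, by genotype, with the group mean and SD in black; circles are libraries with Y-linked transcripts and triangles libraries with Xist. All 3 flox/flox libraries lie above the wt/wt libraries for Serpina3n and Steap4, and wt/wt replicate 3 stands at 59.8 CPM for Lcn2 and 44.6 CPM for Orm2.

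With both Adar1 alleles floxed, the protease inhibitor gene Serpina3n and the metalloreductase gene Steap4 rose against wt/wt. They were the 2 called among the 10 members, all of which passed the filter on low counts, while 29.9% of the 14728 genes tested were called (15.1% higher, 14.7% lower), by edgeR's quasi-likelihood test at an adjusted p under 0.05. With 1 floxed allele, Steap4 was the 1 member that rose (12.5% of all genes called, 6.58% higher and 5.89% lower). Between flox/flox and wt/flox, which carry the same batch mark, 0 members and 0% of all genes were called by edgeR. There, 1 member (Lcn2) and 8.42% of all genes had an unadjusted p under 0.05, limma-voom called 0 genes and DESeq2 called 75, none of them a member. Overlap of groups was read from TMM-adjusted CPM. Groups did not overlap, with the floxed group higher, for 2 members in flox/flox against wt/wt (23% of all genes). The number was 4 in wt/flox against wt/wt (25.8%) and 2 in flox/flox against wt/flox (14.2%). The median log2 fold change of the members was 0.18, 0.11 and -0.11 in flox/flox against wt/wt, wt/flox against wt/wt and flox/flox against wt/flox. Over all tested genes it was 0.02, -0.06 and 0.04.

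**Figure D2:**
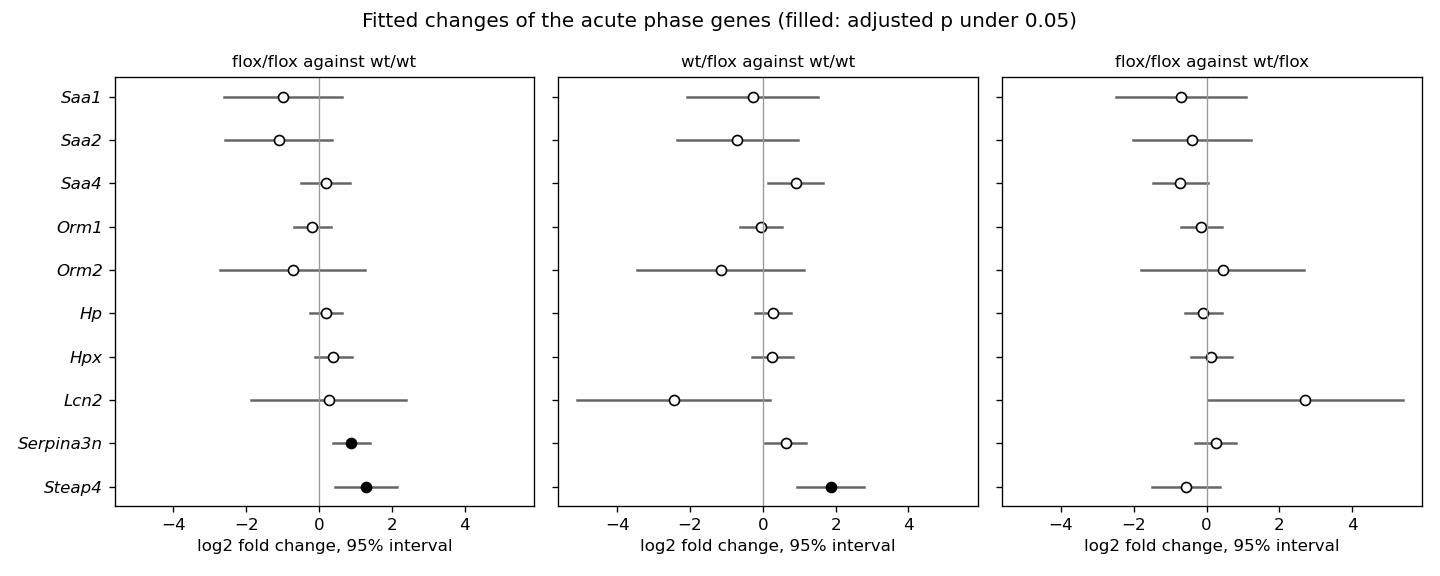
Fitted log2 fold change of each gene with its 95% interval in the 3 comparisons; filled points have an edgeR adjusted p under 0.05. Serpina3n and Steap4 are filled in flox/flox against wt/wt, Steap4 in wt/flox against wt/wt, and none in flox/flox against wt/flox.

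Serpina3n (chr12:104406729-104414329, plus strand) encodes a secreted inhibitor of serine proteases. It was 293, 236 and 424 CPM across wt/wt, 546 and 436 in the wt/flox pair, and 590, 619 and 548 in flox/flox. In CPM, all wt/flox libraries lay above all wt/wt libraries. All flox/flox libraries lay above both other groups, over wt/flox by a small margin (548 against 546 CPM). As a share of sense gene reads, without the TMM adjustment, wt/flox replicates 1 and 2 (0.0484% and 0.0405%) lay below wt/wt replicate 3 (0.0488%). The group means were 318 ± 96.2 CPM for wt/wt (SD, n = 3), 491 ± 77.6 for wt/flox (n = 2) and 585 ± 35.7 for flox/flox (n = 3). It rose 1.84-fold in flox/flox against wt/wt (95% interval 1.30 to 2.62; edgeR adjusted p = 0.0206). Against wt/wt, wt/flox was 1.55-fold higher, which did not pass (edgeR adjusted p = 0.122). Flox/flox against wt/flox gave a fold of 1.19 with an interval of 0.804 to 1.77 (edgeR adjusted p = 0.695). Without wt/wt replicate 1 the call against wt/wt was lost (log2 fold change 0.83, edgeR adjusted p = 0.0714). It was also lost without wt/wt replicate 2 (edgeR adjusted p = 0.0656) or flox/flox replicate 2 (0.0569). Leaving out both libraries of contradicted sex, so that flox/flox replicate 3 stood alone in its group, lost it too.

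Steap4 (chr5:7960457-7982213, plus strand) encodes a membrane metalloreductase of iron and copper uptake that inflammatory cytokines induce. It was 58.8, 55.2 and 92.1 CPM across wt/wt, 225 and 276 in the wt/flox pair, and 273, 117 and 116 in flox/flox. In CPM, every library with a floxed allele lay above every wt/wt library, and flox/flox spanned a wide range. As a share of sense gene reads, without the TMM adjustment, Steap4 in flox/flox replicate 2 (0.0100%) lay below wt/wt replicate 3 (0.0106%). It rose 3.64-fold in wt/flox against wt/wt (95% interval 1.91 to 6.93; edgeR adjusted p = 0.0273) and 2.46-fold in flox/flox against wt/wt (1.36 to 4.43; edgeR adjusted p = 0.0327). Flox/flox against wt/flox gave a fold of 0.675 with an interval of 0.355 to 1.28 (edgeR adjusted p = 0.616).

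The Steap4 libraries also sorted by sex transcripts within the batch mark. The 3 batch2 libraries with Y-linked transcripts were 225 to 276 CPM, and the 2 with Xist were 116 and 117 CPM. In wt/wt the order was the other way, with 55.2 and 58.8 CPM where Y-linked transcripts were present and 92.1 CPM where Xist was. With sex by transcripts as a term, the log2 fold change in flox/flox against wt/wt was 1.30 (edgeR adjusted p = 0.0354). Without the 2 libraries of contradicted sex it was 0.75 and the call was lost, with flox/flox replicate 3 alone in its group. The call in flox/flox against wt/wt was also lost without wt/wt replicate 1 (edgeR adjusted p = 0.099), wt/wt replicate 2 (0.114), wt/flox replicate 1 (0.0544) or wt/flox replicate 2 (0.0531), and with only the 2 groups compared (0.052). The call in wt/flox against wt/wt was lost without those same 4 libraries (edgeR adjusted p = 0.0819, 0.0939, 0.104 and 0.165). With a term for replicate number, which also stands for mouse age, neither call passed.

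The serum amyloid genes lie together on chromosome 7. Saa1 (chr7:46740497-46742980, minus strand) was 132, 21.1 and 49.9 CPM across wt/wt, 38.9 and 73.1 in the wt/flox pair, and 44.5, 12.6 and 46.2 in flox/flox. Saa2 (chr7:46751790-46754313, plus strand) was 19.2, 5.97 and 20.9 CPM across wt/wt, 6.80 and 12.04 in the wt/flox pair, and 7.18, 2.29 and 11.9 in flox/flox. The groups overlapped for both genes in all 3 comparisons, and flox/flox replicate 2 held the lowest level of each. In flox/flox against wt/wt the log2 fold change was -0.98 (SE 0.70; edgeR adjusted p = 0.321) for Saa1 and -1.11 (SE 0.64; 0.222) for Saa2. That of Saa1 was -0.05 without wt/wt replicate 1.

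Over the 8 libraries, log2 CPM of Saa1 and Saa2 had a Pearson r of 0.871, and of 0.877 after each group's mean was taken out. Their mRNAs were 94.4% identical, but no stretch of 100 bases was shared, and the ratio of Saa1 to Saa2 reads ran from 2.39 to 6.92. How reads that match both genes were treated bears on their separate levels, which are uncertain.

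Saa4 (chr7:46727998-46732603, minus strand) was 188, 189 and 147 CPM across wt/wt, 359 and 294 in the wt/flox pair, and 303, 154 and 137 in flox/flox. Both wt/flox libraries lay above all wt/wt libraries, and flox/flox overlapped wt/wt. In wt/flox against wt/wt the fold was 1.87 (95% interval 1.11 to 3.15; edgeR adjusted p = 0.105), and it passed under DESeq2 (adjusted p = 0.0348). Against wt/flox, flox/flox had a log2 fold change of -0.72 (SE 0.33; edgeR adjusted p = 0.558). Among batch2 libraries the 3 with Y-linked transcripts were 294 to 359 CPM and the 2 with Xist were 137 and 154 CPM. In wt/wt these values were 188 and 189 CPM against 147 CPM.

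The orosomucoid genes are neighbours on chromosome 4. Orm1 (chr4:63344560-63348163, plus strand) was 697, 557 and 815 CPM across wt/wt, 515 and 824 in the wt/flox pair, and 699, 545 and 581 in flox/flox. The groups overlapped, and the fold was 0.882 in flox/flox against wt/wt with an interval of 0.618 to 1.26 (edgeR adjusted p = 0.562). Orm2 (chr4:63362449-63365878, plus strand) was 7.29, 4.04 and 44.6 CPM across wt/wt, 3.74 and 12.97 in the wt/flox pair, and 10.1, 8.19 and 15.6 in flox/flox. One wt/wt library, replicate 3, was far above all others. The log2 fold change of Orm2 in flox/flox against wt/wt was -0.72 (SE 0.86; edgeR adjusted p = 0.552), and 1.00 (0.215) without that library. The 2 mRNAs were 91.0% identical and shared 47 of 676 windows of 100 bases (6.95%), and the level of Orm2, the less abundant copy, is uncertain.

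Hp (chr8:109575128-109579172, minus strand) was 2329, 2034 and 2248 CPM across wt/wt, 2344 and 2982 in the wt/flox pair, and 3134, 2190 and 2213 in flox/flox. In CPM, both wt/flox libraries lay above all wt/wt libraries, replicate 1 by a small margin, and flox/flox overlapped both groups. As a share of sense gene reads, without the TMM adjustment, Hp in wt/flox replicate 1 (0.208%) lay below every wt/wt library (0.231% or more). Its fold was 1.14 in flox/flox against wt/wt (95% interval 0.838 to 1.55; edgeR adjusted p = 0.484). Hpx (chr7:105591613-105600137, minus strand) was 4309, 3537 and 5545 CPM across wt/wt, 4801 and 5887 in the wt/flox pair, and 6783, 4857 and 5948 in flox/flox. The groups overlapped in all 3 comparisons. Its fold was 1.31 in flox/flox against wt/wt (0.921 to 1.87; edgeR adjusted p = 0.213). Between flox/flox and wt/flox the fold was 0.943 for Hp (0.669 to 1.33) and 1.10 for Hpx (0.737 to 1.63). Hpx reads outnumbered Hp reads 1.74 to 2.69 times within a library.

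Lcn2 (chr2:32384633-32388252, minus strand) encodes lipocalin 2, which binds the siderophores that bacteria use to take up iron. It was 12.1, 2.46 and 59.8 CPM across wt/wt, 3.11 and 6.01 in the wt/flox pair, and 24.4, 20.8 and 44.2 in flox/flox. Flox/flox lay above wt/flox in every library, while wt/wt spanned both. Both wt/flox libraries had Y-linked transcripts. Among batch2 libraries the 3 with Y-linked transcripts were 3.11 to 24.4 CPM and the 2 with Xist were 20.8 and 44.2 CPM. In wt/wt these values were 2.46 and 12.1 CPM against 59.8 CPM. The highest library of wt/wt and of flox/flox was replicate 3, from a mouse aged 7 weeks, and wt/flox had no mouse of that age. The fold of flox/flox against wt/flox was 6.54 (95% interval 1.02 to 42.0; edgeR adjusted p = 0.558). Serpina3n was the other member whose groups did not overlap there, by a small margin. With sex by transcripts as a term the log2 fold change of Lcn2 was 1.68, against 2.71 without it. In flox/flox against wt/wt it was 0.27 (SE 0.92; edgeR adjusted p = 0.846), and 2.04 (0.0689) without wt/wt replicate 3. For wt/flox against wt/wt it was -2.44 (SE 1.15; edgeR adjusted p = 0.185), and -0.67 without that library.

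Neutrophils also make Lcn2, and markers of immune cells were highest in the same wt/wt library. In these bulk samples fewer cells of a type and less RNA per cell cannot be told apart. The summed level of 11 neutrophil markers was 1.0555, 0.998 and 13.7 CPM across wt/wt, 0.912 and 1.43 in the wt/flox pair, and 0.955, 0.724 and 2.26 in flox/flox. S100a8, a granulocyte calcium-binding protein, had 321 reads in wt/wt replicate 3 and 4 to 19 reads elsewhere. Ly6g, which defines neutrophils, had 5 reads there, 1 read in flox/flox replicate 2 and 0 in the other 6 libraries, where a count of 0 allows up to 3 reads for counting error only. The 10 Kupffer cell and macrophage markers summed to 58.7, 57.8 and 250 CPM across wt/wt, 32.0 and 33.5 in the wt/flox pair, and 49.6, 32.8 and 117 in flox/flox. In flox/flox replicates 1 and 2, Lcn2 was above both wt/flox libraries while the neutrophil sum was 0.955 and 0.724 CPM. The part of these cells in the Lcn2 and Orm2 levels was not tested.

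**Figure D3:**
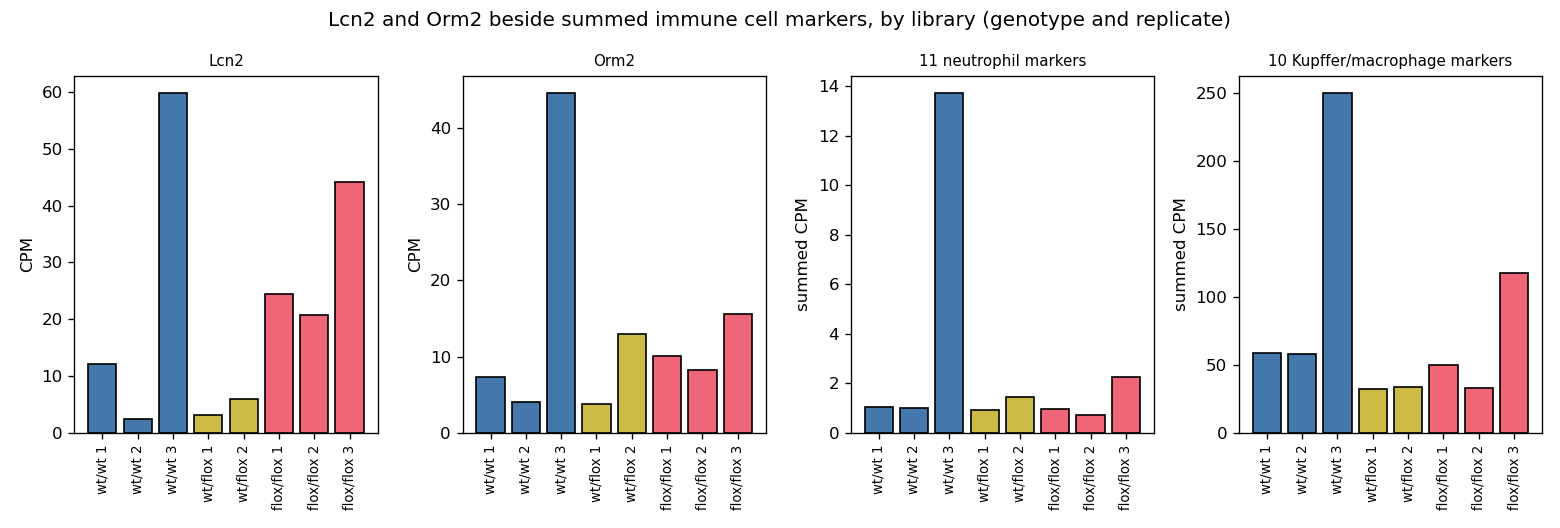
CPM of Lcn2 and Orm2 and summed CPM of 11 neutrophil and 10 Kupffer cell and macrophage markers in each library, with bars coloured by genotype. The library labelled wt/wt replicate 3 is highest in all 4 panels, with 59.8 CPM, 44.6 CPM, 13.7 CPM and 250 CPM.

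Lcn2 and Orm2 varied together from library to library. The Pearson r of their log2 CPM was 0.829 over the 8 libraries and 0.935 after group means were taken out. For Orm2, wt/wt replicate 3 stood far above the rest. Saa4 and Lcn2 had the lowest r among the pairs, -0.594. These values share libraries, depth and genotype, and are descriptions. The mean of the members' standardised log2 CPM was lowest in wt/wt replicate 2 (-1.10) and highest in flox/flox replicate 1 (0.69). The 6 named genes most like this mean, among 8618 genes, were Mlxip (r = 0.928), Plk3 (0.888), Sec24b (0.852), Pxk (0.839), Tbk1 (0.836) and Gadd45g (0.830), over 8 libraries.

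The other genes of the acute phase pathway were described by lists that held 99 genes besides the members, of which 89 passed the filter. Of these, 23 rose and 2 fell in flox/flox against wt/wt, where 29.9% of all genes were called (15.1% higher, 14.7% lower). The share called in either direction was near that of all genes. Without wt/wt replicate 1 or wt/wt replicate 2 the count called was 9 for each, where 19.1% and 15% of all genes were called. It was 13 without flox/flox replicate 2 or 3, where 20.7% and 23.9% of all genes were called. Of 21 other positive acute phase genes, 9 rose and 0 fell. Cp, which encodes the copper-carrying ferroxidase ceruloplasmin, averaged 1277 ± 238 CPM in wt/wt and 2667 ± 275 CPM in flox/flox (SD, n = 3 for both), a rise of 2.09-fold (adjusted p by edgeR 0.00535). C4b, a complement component, rose 2.17-fold, Cfb, complement factor B, 1.67-fold and Itih3, a hyaluronan-binding inhibitor chain, 1.74-fold. The median log2 fold change of this list was 0.70.

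Of the 8 negative acute phase genes, 4 rose in flox/flox against wt/wt and 0 fell, where 15.1% of all genes were called higher and 14.7% lower. Their median log2 fold change was 0.71, against 0.02 for all genes tested, and 6 of the 8 had a positive value. Serpina6, which encodes the cortisol-binding globulin, rose 2.57-fold, Fetub 1.77-fold, Ahsg, which encodes fetuin-A, 1.61-fold and Trf, the gene of transferrin, 1.66-fold. Of 10 hepatocyte markers, 3 rose and 0 fell in this comparison, 6 had a positive log2 fold change, and the median was 0.26. Of 10 endothelial markers, 7 fell and 0 had a positive log2 fold change. Alb, Ttr and Apoa1 were in both the hepatocyte and the negative acute phase list. The part of these cell types in the counts of acute phase genes was not tested.

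Of 10 cytokine genes, 6 were tested and 1 rose in flox/flox against wt/wt, a share near the background. Of all genes tested, 15.1% were called higher and 14.7% lower there. Clcf1, a ligand of the gp130 family, was 0.254, 0.093 and 0.329 CPM in wt/wt and 1.19, 0.375 and 0.926 CPM in flox/flox, a 3.68-fold rise (edgeR adjusted p = 0.0423). Il6 had 0 to 4 reads per library. Among 10 receptor genes 3 rose: Tnfrsf1a, a receptor of tumour necrosis factor (1.48-fold), Il22ra1, of interleukin-22 (1.70-fold), and Il6st, which encodes gp130 (1.48-fold). Of 12 signalling and transcription factor genes, 0 rose and 1 fell by edgeR, namely the NF-kB subunit Rela, which was 37.4 ± 1.18 CPM in wt/wt and 25.1 ± 3.20 in flox/flox (SD, n = 3 each; edgeR adjusted p = 0.0089).

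Smaller lists gave 1 to 3 calls each in flox/flox against wt/wt, where 15.1% of all genes were called higher and 14.7% lower. The lists with 1 rise lay near that background. Of 7 feedback genes tested, 1 rose, the NF-kB cofactor Nfkbiz (2.30-fold), and of 8 glucocorticoid response genes, 1 rose, the phosphatase gene Dusp1 (1.48-fold). Of 7 tested genes of partners that clear member complexes, 2 rose and 1 fell. Lrp1, a hepatocyte endocytic receptor that takes up haem-hemopexin, averaged 1223 ± 61.5 CPM in wt/wt and 2926 ± 499.7 CPM in flox/flox (SD, n = 3 for both), a rise of 2.39-fold (adjusted p by edgeR 0.00248). Scarb1, the receptor of high-density lipoprotein, rose 1.49-fold, and Blvrb, a biliverdin reductase, was 1.93-fold lower.

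In wt/flox against wt/wt, 11 of the 89 genes rose, where 6.58% of all genes were called higher. The count called was 0 or 1 without wt/wt replicate 1 or 2, where 2.68% and 0.259% of all genes were called. It was 7 without flox/flox replicate 2, where 8.43% of all genes were called. Without either wt/flox replicate that group holds 1 library. Other positive acute phase genes gave 7 rises and 0 falls. Among the rises were Cp (1.94-fold), C4b (2.05-fold), the protease inhibitor gene Serpina10 (1.65-fold) and the fibrinogen chain gene Fgb (1.83-fold). The receptor genes Il6st (1.71-fold) and Il1rap (1.77-fold) rose, as did Lrp1 (2.29-fold) and Scarb1 (1.67-fold). Of the 8 negative acute phase genes 0 were called by edgeR, with 3 at an unadjusted p under 0.05 (31.7% of all genes). Fetub had the smallest p (1.505-fold higher, edgeR adjusted p = 0.0742).

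Between flox/flox and wt/flox, 0 of the 89 genes were called by edgeR, limma-voom or DESeq2, and 8 had an unadjusted edgeR p under 0.05, where 8.42% of all genes did, a share near that background. The genes with the smallest p in their lists are given as values. Clcf1 was 4.41-fold higher, Steap2 1.94-fold, Nfkbiz 1.87-fold and Tnfrsf1a 1.22-fold (edgeR adjusted p = 0.558 for each). Both wt/flox libraries had Y-linked transcripts, and the highest Steap2 levels were in the flox/flox libraries with Xist. The medians were 0.08 for other positive and 0.15 for negative acute phase genes, and 0.04 for all genes.

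**Figure D4:**
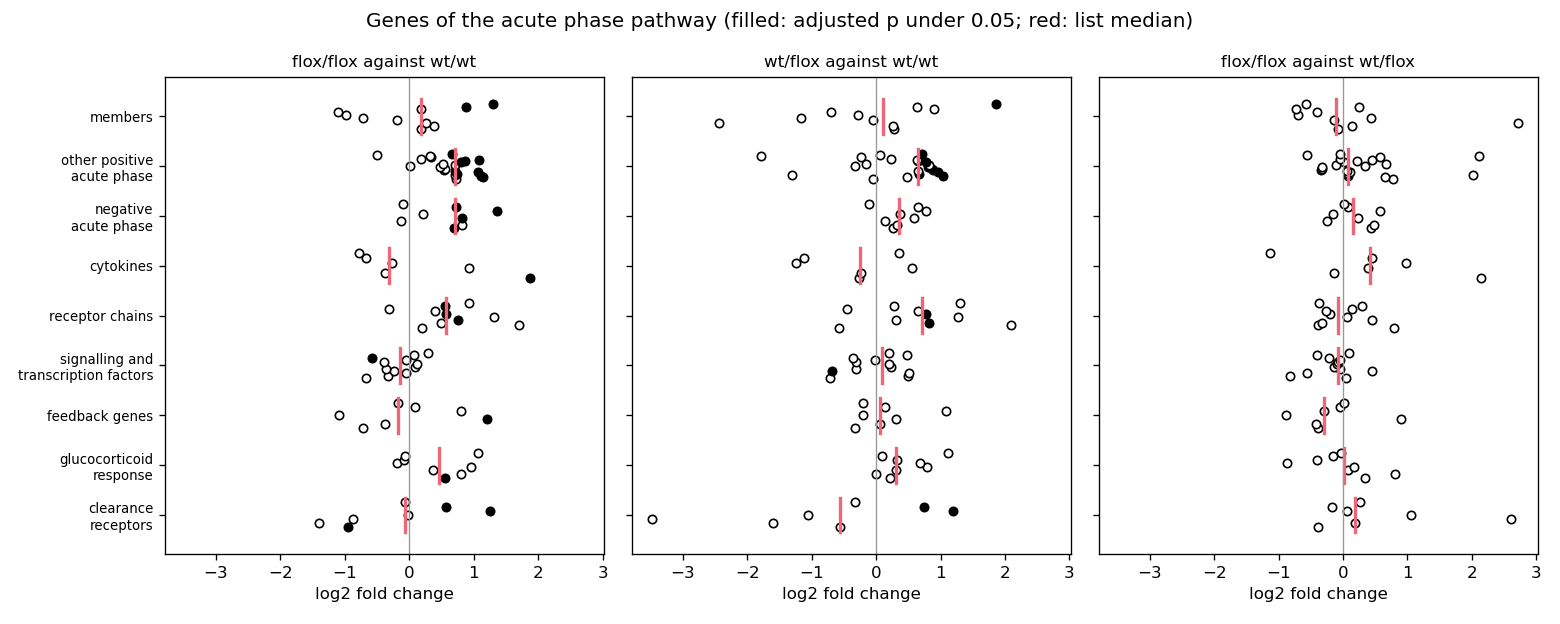
Fitted log2 fold change of every tested gene of each list (rows) in the 3 comparisons; filled points have an edgeR adjusted p under 0.05 and red bars are list medians. The medians of the positive and negative acute phase lists stand at 0.70 and 0.71 in flox/flox against wt/wt, and that of the members at 0.18.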

How the data were processed

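Per the file headers, the authors deposited raw counts per gene symbol, with sense and antisense reads in separate columns, 1 file per library. Ribosomal RNA was depleted and libraries kept strand, per the labels' protocols. The submitters' processing notes name GRCm38 (mm10) and DESeq2; aligner, counting program and annotation: not given in the sources used here. The 5 rows naming no gene were left out. Reads given to no gene in the sense column were 22.2% to 28.1% in wt/wt and 31.65% to 40.0% elsewhere. Alignments to several places were 8.97% to 10.9% in wt/wt and 3.92% to 4.98% elsewhere.

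Sense counts were tested with edgeR 4.0.16 (R 4.3.3): TMM, filterByExpr (14728 genes left), quasi-likelihood F test, genotype only, all 8 libraries in 1 fit, two-sided, Benjamini-Hochberg adjustment over all tested genes at 0.05. The TMM factors were 1.138 to 1.188 in wt/wt and 0.8554 to 0.9963 elsewhere. Labelled sex was no term because transcripts contradict it in 2 libraries. Intervals are 95% and per gene. Levels per kb used the longest CCDS transcript of GENCODE M21, in which 24321 symbols (96.4%) matched. In simulated counts, 13.4% of 2-fold and 63.6% of 4-fold changes were recovered in flox/flox against wt/wt. Far fewer genes were changed there than the 4400 called in the data. Recovery depends on that number through the adjustment, so these shares do not give the recovery in the data.

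Members and lists were chosen with earlier results of these data known. All members were named, and of each list up to 4 called genes of smallest adjusted p or, with none called, 1 or 2 of smallest p. The genes most like the members were the 6 of highest r with a mean of at least 5 CPM, predicted genes, Rik clones and small RNAs passed over. Alternatives were RLE and upper-quartile size factors, 2 filters, DESeq2 1.42.0, limma-voom (limma 3.58.1), labelled or transcript sex, a replicate block, 2 groups alone, antisense reads added, and libraries left out. The values of 1 list gene are not reported here.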

Additional observations from a re-analysis of the deposited data

Results flagged for a closer look

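Antisense reads were not used in the reported comparisons and entered only the alternative that added them to sense reads. For Serpina3n, the lowest flox/flox library had 437.4 antisense CPM, scaled to antisense gene reads, above the highest wt/wt library (388). For Steap4 these values were 61.25 and 55.7. The antisense share of a member's reads was 5.32% to 6.72% for Serpina3n and 3.45% to 4.93% for Steap4, and 6.43% to 7.78% over all genes. A cause was not tested. Groups of 2 or 3 libraries are too small for a check of single outlying samples.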

How the results depend on the processing

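Across 20 alternatives no call changed sign. Members called in flox/flox against wt/wt numbered 2 in the reported fit, 1 with the replicate block and 1 with only the 2 groups compared. They numbered 0 to 2 with 1 wt/wt or flox/flox library left out. Without the 2 libraries of contradicted sex, flox/flox replicate 3 stood alone in its group, here and below. In wt/flox against wt/wt the reported 1 became 2 under DESeq2, 0 with the replicate block, 2 with only the 2 groups, 2 without the libraries of contradicted sex, and 0 to 2 with 1 library left out. List genes called in flox/flox against wt/wt numbered 25, but 8 without the libraries of contradicted sex and 9 to 27 with 1 library left out. In wt/flox against wt/wt the 12 became 19 under DESeq2, 4 with the replicate block and 0 to 14 with 1 library left out. Over all genes, calls in wt/flox against wt/wt were 1837, but 3296 under DESeq2, 393, 38 and 1001 when wt/wt replicate 1, 2 or 3 was left out, and 0 without either wt/flox replicate. In flox/flox against wt/wt the 4400 became 2807 or 2195 when wt/wt replicate 1 or 2 was left out, and 2915 without the libraries of contradicted sex. Upper-quartile factors turned 969 higher and 868 lower genes in wt/flox against wt/wt into 835 and 1305. Other than by fewer samples, the cause was not tested. The replicate numbers were not taken as pairs: same-numbered wt/wt and flox/flox libraries correlated at 0.291, 0.0185 and 0.451, and wt/wt replicate 2 did not correlate best with its own number. The replicate number also went with mouse age (11, 9 and 7 weeks), so the block is a term for age too. With the block, Steap4 in flox/flox against wt/wt had a log2 fold change of 1.25 (edgeR adjusted p = 0.0571), and in wt/flox against wt/wt of 1.92 (0.0541), so neither passed. Saa4 in wt/flox against wt/wt also passed with only the 2 groups (0.0246) and without flox/flox replicate 1 (0.0176), and Serpina3n without wt/wt replicate 3 (0.042).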

Other observations

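Among paralogs of the members, 12 of 15 were tested and 2 rose in flox/flox against wt/wt, where 15.1% of all genes were called higher, a similar share. Steap2, a metalloreductase gene of the same family as Steap4, was 10.5, 14.6 and 16.8 CPM across wt/wt, 17.2 and 15.8 in the wt/flox pair, and 18.3, 42.4 and 35.3 in flox/flox, a 2.29-fold rise against wt/wt (edgeR adjusted p = 0.0226). Its highest flox/flox libraries were replicates 2 and 3, whereas Steap4 was highest in replicate 1. Among batch2 libraries, Steap2 was 15.8 to 18.3 CPM where Y-linked transcripts were present, and 42.4 and 35.3 CPM where Xist was. In wt/wt these values were 10.5 and 14.6 CPM against 16.8 CPM. Serpina3m, a relative of Serpina3n with 82.7% mRNA identity, rose 2.04-fold (edgeR adjusted p = 0.0481), and its reads may be split with near copies. Serpina3k was 12893 ± 1692 CPM in wt/wt and 13905 ± 5185 in flox/flox (SD, n = 3 each; edgeR adjusted p = 0.794).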
